A study of Homo sapiens with 8 samples.

Results

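The enzymes that supply cytosolic NADPH were followed in CYP2C19-overexpressing HepG2 cells exposed to compounds 4–6. The 8 genes were taken by symbol from the 60230 genes of the count table. PGLS and PGD belong to the oxidative branch of the pentose phosphate pathway, and RPIA, RPE, TKT and TALDO1 form its non-oxidative branch. ME1 and IDH1 encode the cytosolic malic enzyme and the cytosolic isocitrate dehydrogenase. Of the 8 genes, 7 passed the filter on low counts and were tested among 13400 genes, and ME1 did not.

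The cells, HepG2, are a line from a human liver tumour, here carrying a CYP2C19 transgene that was kept under blasticidin selection in every group. The promoter of the transgene and the number of clones are not given in the sources used here. The 4 groups received the solvent DMSO, compound 4 (labelled metylcresol), compound 5 (tetrabut) or compound 6 (cyclohexil), and each had 2 samples, labelled day 1 and day 2. The methods give an exposure of 24 h for all, and the labels do not say what the day stands for; it was read here as the replicate. Compounds 4–6 are bisphenol antioxidants from plastic. Compounds 4 and 6 carry a methylene bridge and a methyl group on each ring and differ in the remaining ring substituent, which is tert-butyl in compound 4 and cyclohexyl in compound 6. Compound 5 has an ethane bridge and tert-butyl groups only. Each compound was given at its own IC50, so the concentrations were similar but not identical.

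NADPH is the electron donor of reductive biosynthesis and of the systems that keep glutathione and thioredoxin reduced. In the oxidative branch of the pentose phosphate pathway, glucose 6-phosphate is converted to ribulose 5-phosphate with reduction of NADP. The non-oxidative branch interconverts sugar phosphates and links ribose to glycolysis. Genes of NADPH supply are known targets both of SREBP, which drives sterol and fatty acid synthesis, and of NRF2, which drives antioxidant defence.

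The total count per sample lay between 9791659 and 17814595. Replicates 1 of DMSO and compound 4 are marked as merged in the labels, which do not say what was merged. Expression is given in CPM, counts scaled to a common library size after TMM normalization. All 9 hepatocyte markers were detected in every library, and 5 markers of blood, connective tissue and vessel cells stayed at or below 1.23 CPM each, with PTPRC at 0. The summed hepatocyte markers ranged from 48786 to 52557 CPM under DMSO and from 35046 to 42159 under compound 4. Under compounds 5 and 6 they ranged from 42387 to 43863 and from 37542 to 43423 CPM. ALB, AFP, APOB and TF make up most of these sums. They and SERPINA1 had lower means under each compound than under DMSO, while APOA2, TTR, FGB and HNF4A moved in no common direction. Mean APOA2 was 1430 CPM under DMSO and 1727 under compound 4, and mean FGB was 186 under DMSO and 269 under compound 5. CYP2C19 lay at 16.4–27.7 CPM in the DMSO libraries, and at 31.4–44.3, 38–52.8 and 21.2–23.9 CPM with compounds 4, 5 and 6. The part of either in the results was not tested.

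IDH1 was the 1 gene of the 8 that changed past the threshold, an adjusted p under 0.05, and it fell under compounds 4 and 5. Of all genes tested, 9.51%, 8.3% and 0.575% passed under compounds 4, 5 and 6. Compound 4 left 48.3% of the DMSO level and compound 5 left 53%. With compound 6, 73.6% remained, a decrease that did not pass the threshold. The 6 pentose phosphate genes differed from DMSO by log2-fold changes between −0.17 and 0.30, and none passed. ME1 had no count in any library. TKT was the gene nearest to the threshold among those that did not pass, with higher values under compounds 4 and 5. In the plot of CPM by library, these patterns can be read gene by gene.

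**Figure D1:**
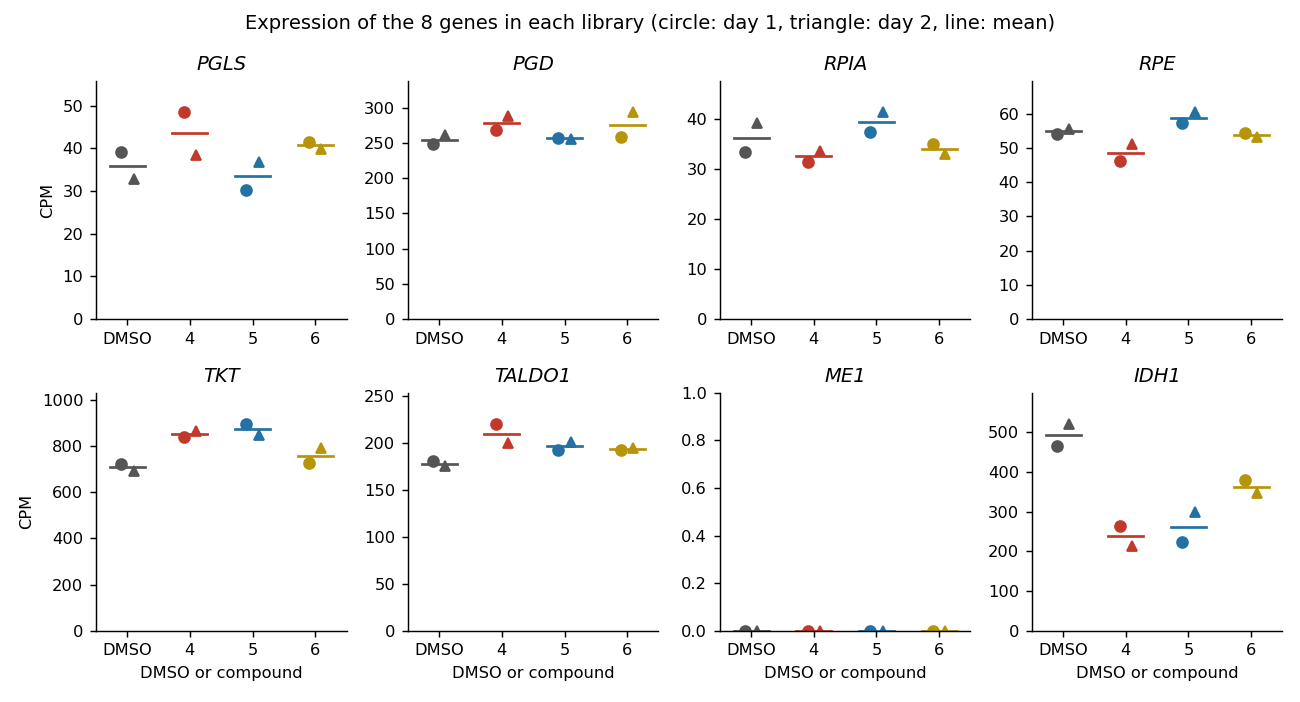
CPM (linear axes from 0) of the 8 genes in each of the 8 libraries, with a circle for day 1, a triangle for day 2 and a line for the group mean. IDH1 lies at 465 and 521 CPM under DMSO and at 299 CPM or less in every library of compounds 4 and 5, while ME1 is at 0 throughout.

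Promoter sequences were available from RefSeq (GRCh38.p14) for all 8 genes, in 9 windows since IDH1 has a pair of starts. The RefSeq starts of all 8 genes lie inside the gene spans given further on, and the windows of PGD and IDH1 lie wholly inside them. Those spans come from another annotation and reach to the outermost transcript. The 250 bases before each start were searched on both strands for TGACNNNGC, the core of the antioxidant response element bound by NRF2, for TCACNCCAC, the core of a sterol regulatory element bound by SREBP, for the E-box CACGTG and for the CCAAT box. These 4 motifs did not overlap one another in the windows. TGACNNNGC was found in 4 of the 9 windows, those of PGD, RPE, ME1 and 1 of the IDH1 starts, against 10.9% of 35116 promoters. TCACNCCAC was found in 0 of 9 windows, against 0.883% of all promoters, and CACGTG in 0 of 9, against 6.34%. CCAAT was found in 6 of 9 windows, against 32%. A match describes only these letters. The windows of IDH1, which changed, of PGD and ME1, the other dehydrogenases of the group, and of TKT, the most abundant gene, are printed from 5′ to 3′ on the strand of the gene, with matches to any of the 4 motifs in capitals.
IDH1, upstream start, chr2:208255072-208255321, minus strand: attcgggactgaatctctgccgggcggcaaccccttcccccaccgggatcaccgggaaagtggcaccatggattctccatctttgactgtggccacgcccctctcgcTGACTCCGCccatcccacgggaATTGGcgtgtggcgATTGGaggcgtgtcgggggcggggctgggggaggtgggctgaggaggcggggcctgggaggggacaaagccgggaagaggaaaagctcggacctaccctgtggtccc
IDH1, downstream start, chr2:208254459-208254708, minus strand: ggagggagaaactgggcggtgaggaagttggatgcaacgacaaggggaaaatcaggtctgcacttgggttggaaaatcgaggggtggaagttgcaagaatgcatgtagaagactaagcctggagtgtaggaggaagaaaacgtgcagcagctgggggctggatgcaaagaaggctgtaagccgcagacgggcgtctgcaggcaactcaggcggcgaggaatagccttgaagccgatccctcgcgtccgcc
PGD, chr1:10398814-10399063, plus strand: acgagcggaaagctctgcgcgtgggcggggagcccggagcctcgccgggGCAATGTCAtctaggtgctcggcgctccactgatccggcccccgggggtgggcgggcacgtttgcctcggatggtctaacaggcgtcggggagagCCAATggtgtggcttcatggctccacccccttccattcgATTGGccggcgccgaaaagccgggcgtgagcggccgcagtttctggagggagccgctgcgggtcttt
ME1, chr6:83431052-83431301, minus strand: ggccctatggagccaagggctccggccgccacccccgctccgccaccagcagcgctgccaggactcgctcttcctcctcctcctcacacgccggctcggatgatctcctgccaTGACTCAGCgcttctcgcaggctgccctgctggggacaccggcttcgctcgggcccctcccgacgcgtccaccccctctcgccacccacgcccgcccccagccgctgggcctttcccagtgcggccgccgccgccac
TKT, chr3:53256023-53256272, minus strand: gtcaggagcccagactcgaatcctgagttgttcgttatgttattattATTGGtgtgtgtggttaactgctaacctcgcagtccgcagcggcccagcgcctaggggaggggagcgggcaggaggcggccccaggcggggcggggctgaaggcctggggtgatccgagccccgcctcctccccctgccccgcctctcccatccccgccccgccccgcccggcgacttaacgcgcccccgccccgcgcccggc
In the upstream IDH1 window, TGACTCCGC occupies bases 143 to 135 before the start, followed by a pair of CCAAT boxes on the opposite strand. In ME1, TGACTCAGC lies at bases 137 to 129, and in PGD the match lies on the opposite strand at bases 201 to 193. The downstream IDH1 window holds no match, and that of TKT a single CCAAT box.

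IDH1 (ENSG00000138413, chromosome 2, 208236227 to 208266074, minus strand of GRCh38) encodes the enzyme that oxidizes isocitrate to 2-oxoglutarate in the cytosol and peroxisomes. It was measured at 465 and 521 CPM in replicates 1 and 2 of DMSO, at 263 and 213 CPM under compound 4, at 224 and 299 CPM under compound 5, and at 379.8 and 346 CPM under compound 6. All treated libraries lay below both DMSO libraries, a separation from DMSO in either direction that 58.4%, 59.5% and 55.4% of all genes had under compounds 4, 5 and 6, and the 4 libraries of compounds 4 and 5 also lay below those of compound 6. The mean was 493 ± 39.8 CPM with DMSO, falling to 238 ± 35.7 with compound 4 and 261 ± 53.1 with compound 5, and it was 363 ± 23.7 with compound 6 (mean ± SD, n = 2). In such bulk samples, fewer transcripts per cell and fewer cells that express a gene cannot be told apart.

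Under compound 4, the log2-fold change of IDH1 was −1.05 ± 0.16 (SE; adjusted p = 0.0063, edgeR quasi-likelihood, Benjamini-Hochberg). This was the 330th lowest change of 13400 genes. Under compound 5 it was −0.92 ± 0.16 (adjusted p = 0.012, edgeR quasi-likelihood, Benjamini-Hochberg), the 626th lowest. Under compound 6 it was −0.44 ± 0.15, with a 95% interval from −0.79 to −0.10 (adjusted p = 0.17, edgeR quasi-likelihood, Benjamini-Hochberg). The decrease was seen in the samples of both labelled days. Within day 1 it was −0.82, −1.05 and −0.29 on the log2 scale under compounds 4, 5 and 6, and within day 2 it was −1.29, −0.80 and −0.59. Both calls depended on single libraries. Without replicate 2 of DMSO, the adjusted p was 0.081 for compound 4 and 0.11 for compound 5, and without replicate 2 of compound 4 it was 0.058 (edgeR, Benjamini-Hochberg). For compound 5 it was 0.064 without replicate 1 of DMSO and 0.0791 without replicate 1 of compound 5 (edgeR, Benjamini-Hochberg), while the log2-fold changes stayed between −1.23 and −0.73 for both compounds over the 13 alternatives. Over these, the adjusted p ranged from 5.3e-15 to 0.081 for compound 4 and from 3.4e-11 to 0.11 for compound 5. For compound 6, 2 of 13 alternatives gave a call, with adjusted p between 0.0067 and 0.61 over all of them. These were a fit of only the 4 samples compared (adjusted p = 0.030, edgeR, Benjamini-Hochberg) and a test of all genes without a filter (adjusted p = 0.0067, edgeR, Benjamini-Hochberg). The antisense gene IDH1-AS1 overlaps IDH1 and lay between 0.196 and 1.60 CPM. Whether the counting used strand is not given in the sources used here.

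PGD (ENSG00000142657, chromosome 1, 10398592 to 10420144, plus strand) encodes 6-phosphogluconate dehydrogenase, which yields NADPH in the oxidative branch. It lay at 248 and 261 CPM under DMSO, 269 and 288 under compound 4, 257 and 256 under compound 5, and 259 and 294 under compound 6. The values of compounds 5 and 6 overlapped with those of DMSO, and both of compound 4 lay above them. The log2-fold changes were 0.13, 0.01 and 0.12 under compounds 4, 5 and 6, and none had an upper 95% limit above 0.36. The change under compound 5 was so close to 0 that it turned to −0.00112 with DESeq2's size factors. For PGD, a log2 change of more than 0.36 in either direction lay outside the intervals of all 3 comparisons.

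ME1 (ENSG00000065833, chromosome 6, 83210389 to 83431071, minus strand) encodes the malic enzyme that turns malate into pyruvate with formation of NADPH. It had 0 counts in each of the 8 libraries. A count of 3, which a count of 0 allows, corresponds to between 0.171 and 0.307 CPM per library, a limit that covers counting error only. No comparison could be made for this gene. Of the related mitochondrial enzymes, ME2 was measured at 24.3–32.7 CPM and ME3 at no more than 0.0760 CPM. ME2 and ME3 were named after their values were seen.

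TKT (ENSG00000163931, chromosome 3, 53224707 to 53256052, minus strand) encodes transketolase, which transfers carbon pairs between sugar phosphates. It lay at 721 and 692 CPM under DMSO, 836 and 865 under compound 4, 896 and 846 under compound 5, and 728 and 788 under compound 6. The treated libraries lay above both DMSO libraries in each comparison, by a wide margin under compounds 4 and 5 and a narrow one under compound 6. The log2-fold changes were 0.27 ± 0.09, 0.30 ± 0.09 and 0.10 ± 0.09 (SE; adjusted p = 0.10, 0.076 and 0.60, edgeR quasi-likelihood, Benjamini-Hochberg). The 95% intervals reached from 0.06 to 0.48 under compound 4 and from 0.09 to 0.51 under compound 5. With DESeq2, the change under compound 5 passed the threshold (adjusted p = 0.049, Wald test, Benjamini-Hochberg; 0.049 to 0.32 over the 13 alternatives).

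TALDO1 (ENSG00000177156, chromosome 11, 747329 to 765024, plus strand) encodes transaldolase, the partner of transketolase in the same branch. Its values were 181 and 175 CPM under DMSO, 221 and 199.8 under compound 4, 192 and 202 under compound 5, and 193 and 195 under compound 6. All 6 treated libraries lay above both DMSO libraries. The log2-fold changes were 0.24, 0.15 and 0.12, each with an SE of 0.10 (adjusted p = 0.15, 0.35 and 0.54, edgeR quasi-likelihood, Benjamini-Hochberg).

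The remaining pentose phosphate genes were less abundant. PGLS (ENSG00000130313, chromosome 19, 17511629 to 17521288, plus strand) encodes the lactonase of the oxidative branch. It was found at 39.1 and 32.8 CPM under DMSO, 48.5 and 38.6 under compound 4, 30.3 and 36.9 under compound 5, and 41.5 and 39.9 under compound 6. Its sign under compound 5 changed between days (−0.37 on day 1 and 0.17 on day 2, log2 scale). RPIA (ENSG00000153574, chromosome 2, 88691644 to 88750935, plus strand) encodes the isomerase that forms ribose 5-phosphate. It lay at 33.3 and 39.1 CPM under DMSO and between 31.3 and 41.4 CPM under the compounds. RPE (ENSG00000197713, chromosome 2, 210002565 to 210022259, plus strand) encodes the epimerase that forms xylulose 5-phosphate. It lay at 54.2 and 55.6 CPM under DMSO, 46.2 and 51.1 under compound 4, 57.3 and 60.5 under compound 5, and 54.3 and 53.2 under compound 6. RPE was thus below DMSO in both libraries of compound 4 and above it in both of compound 5, with log2-fold changes of −0.17 and 0.10 that did not pass the threshold (adjusted p = 0.34 and 0.56, edgeR quasi-likelihood, Benjamini-Hochberg). KANSL1L overlaps RPE on the other strand and lay between 3.18 and 6.26 CPM, and a lincRNA opposite PGLS lay between 0.659 and 2.08 CPM. The 11 annotated copies of these genes that share their symbols, among them TKTL1, RPEL1 and the RPE pseudogenes, had at most 1 count per library.

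IDH1 was thus the 1 called gene of 7 (14.3%) both for compound 4 and for compound 5, and compound 6 gave 0 of 7, also with DESeq2. Beside the 9.51%, 8.3% and 0.575% of all genes, this count was near the background. At an unadjusted p under 0.05, 3, 2 and 1 of the 7 genes passed in edgeR's quasi-likelihood test, against 27.5%, 28.4% and 18.6% of all genes. The groups did not overlap with DMSO for 5, 4 and 4 of the 7 genes, while they did not overlap for 58.4%, 59.5% and 55.4% of all genes. The median log2-fold change of the 7 genes was 0.13, 0.10 and 0.10, beside 0.01, 0.00 and 0.02 for all genes. A single decrease in IDH1 thus stood beside 6 genes whose changes were small in either direction.

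**Figure D2:**
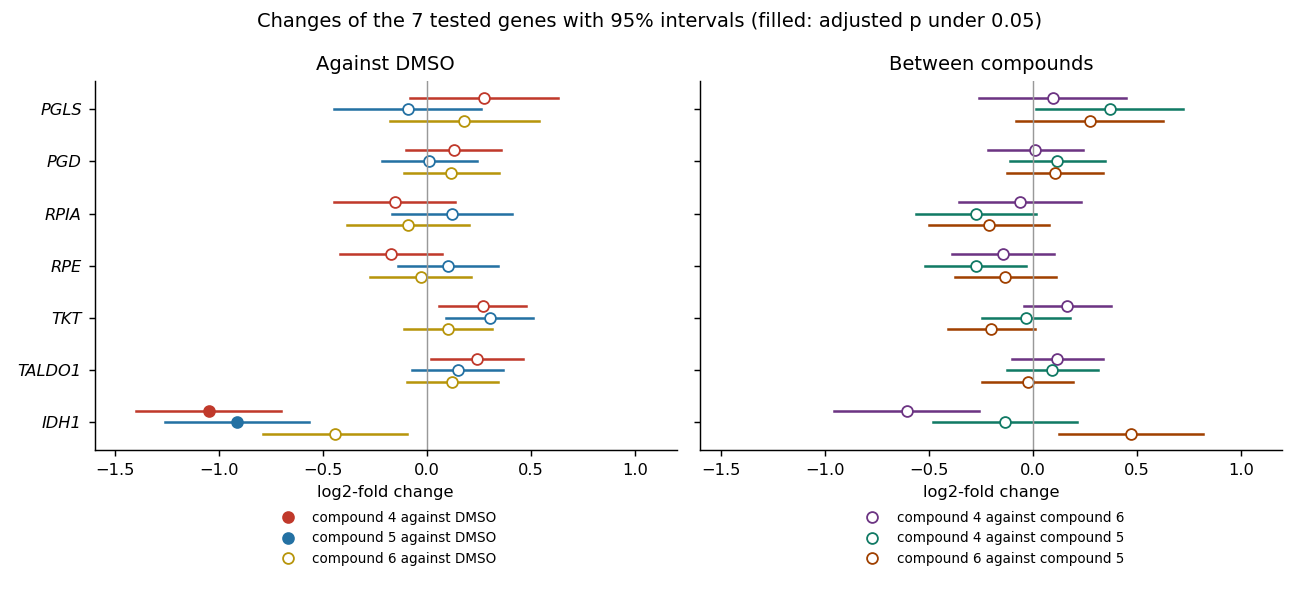
Log2-fold changes (points) with 95% intervals (lines) of the 7 tested genes, against DMSO on the left and between compounds on the right, with filled points for an adjusted p under 0.05. The 2 filled points are those of IDH1 under compounds 4 and 5, at −1.05 and −0.92, and no difference between compounds is filled.

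Levels between genes were compared per kilobase of the longest annotated coding transcript. Under DMSO, TKT was highest at 235 ± 6.77 CPM per kb, followed by IDH1 at 202 ± 16.3, PGD at 135 ± 4.86, TALDO1 at 132 ± 3.04, PGLS at 35.0 ± 4.35, RPIA at 19.6 ± 2.22 and RPE at 17.3 ± 0.310 (mean ± SD, n = 2). The ranges of PGD and TALDO1 overlapped, whereas those of the other neighbours in this order did not. RPE has 11 annotated coding transcripts of 668 to 3165 bases, so its place depends on the length used. Under compound 4, IDH1 dropped behind TALDO1 and PGD, with 97.6 ± 14.6 CPM per kb against 156 ± 11.0 and 148 ± 7.10. Under compound 5, the order was the same, with IDH1 at 107 ± 21.8, TALDO1 at 146 ± 4.80 and PGD at 136 ± 0.280. Under compound 6, IDH1, PGD and TALDO1 were at 149 ± 9.73, 147 ± 13.2 and 144 ± 0.956 CPM per kb and could not be ordered. When the joint length of all exons of the coding transcripts was used instead, IDH1 lay behind both of them under compound 6 as well, at 130.1 CPM per kb.

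**Figure D3:**
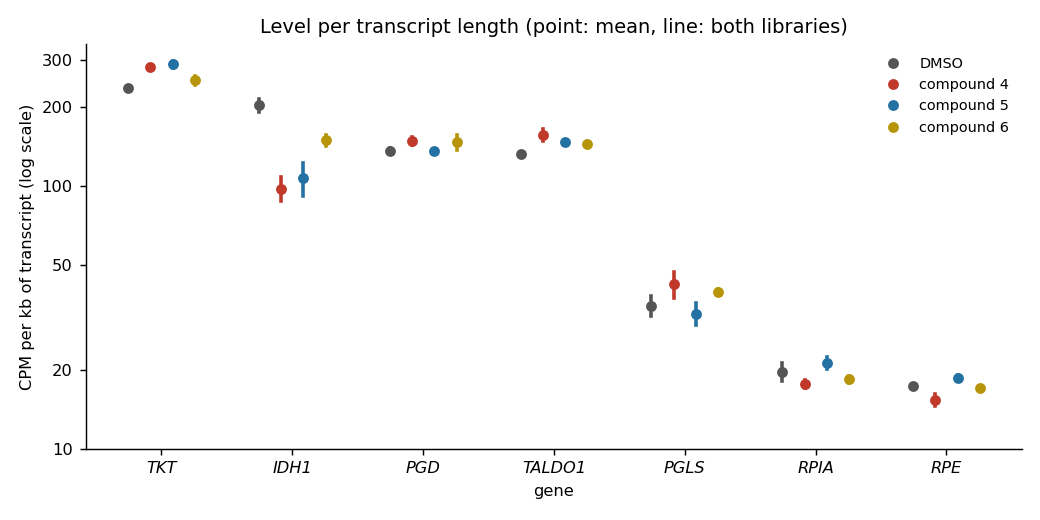
CPM per kilobase of the longest coding transcript (log axis) of the 7 genes with counts, ordered by their DMSO mean, with a point for the mean and a line between both libraries of each group. TKT is highest in every group, and IDH1 moves from the second place under DMSO to below PGD and TALDO1 under compounds 4 and 5.

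Set against PGD within each library, the level of IDH1 per kilobase was 1.45 and 1.54 times that of PGD under DMSO. The ratio was 0.757 and 0.571 under compound 4, 0.673 and 0.901 under compound 5, and 1.13 and 0.910 under compound 6. IDH1 was therefore above PGD in both DMSO libraries and below it in all 4 libraries of compounds 4 and 5. Against IDH2, which encodes the mitochondrial enzyme of the same reaction, the ratio was 3.43 and 4.22 under DMSO, 2.10 and 2.21 under compound 4, 1.95 and 2.41 under compound 5, and 2.97 and 3.32 under compound 6. IDH2 itself lay at 149 and 136 CPM under DMSO and between 106 and 141 CPM under the compounds, with log2-fold changes of −0.22, −0.12 and −0.16 that did not pass the threshold. The ratio of TKT to TALDO1 was 1.78 and 1.77 under DMSO, 1.69 and 1.94 under compound 4, and 2.08 and 1.88 under compound 5. Under compound 6 it was 1.69 and 1.81. Both ratios of compound 5 lay above those of DMSO, and those of compounds 4 and 6 lay on either side. PGD, IDH2 and the pair of TKT and TALDO1 were chosen for these ratios with their values known.

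Between compounds, 0 of the 7 genes passed the threshold in any of the 3 comparisons (edgeR quasi-likelihood, Benjamini-Hochberg), where 0%, 0.313% and 1.03% of all genes passed between compounds 4 and 6, 4 and 5, and 6 and 5. Without adjustment, 1, 2 and 1 of the 7 genes had a p under 0.05, beside 7.05%, 16.2% and 18.5% of all genes, and the groups did not overlap for 4, 4 and 6 of the 7 genes, beside 38.6%, 44.5% and 49.4% of all genes. IDH1 was lower under compound 4, with tert-butyl groups, than under compound 6, with cyclohexyl groups, by a log2 difference of −0.61 with a 95% interval from −0.96 to −0.26 (adjusted p = 0.38, edgeR quasi-likelihood, Benjamini-Hochberg). With DESeq2, this difference passed the threshold (adjusted p = 0.026, Wald test, Benjamini-Hochberg), as it did without a filter on low counts (adjusted p = 0.00040, edgeR, Benjamini-Hochberg; 0.00040 to 1 over the 13 alternatives). Between compounds 6 and 5, IDH1 differed by 0.47 (interval from 0.13 to 0.82; adjusted p = 0.15, edgeR quasi-likelihood, Benjamini-Hochberg). This difference passed without a filter (adjusted p = 0.011, edgeR, Benjamini-Hochberg; 0.011 to 0.58 over the 13 alternatives). Between compounds 4 and 5, it differed by −0.14, with an interval from −0.48 to 0.21 that leaves room for a difference in either direction. PGLS and RPE had an unadjusted p under 0.05 between compounds 4 and 5, with log2 differences of 0.37 and −0.28 and intervals from 0.02 to 0.72 and from −0.52 to −0.03. TKT differed between compounds 4 and 5 by −0.03, with an interval from −0.24 to 0.18. The concentrations in these comparisons were similar but not identical.

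Other genes of NADPH metabolism were described with 4 lists, which were written with earlier results of these data known. Of 12 further genes of the pentose phosphate pathway and ribose phosphate use, 9 were tested, and 0, 1 and 0 passed the threshold under compounds 4, 5 and 6. Their changes had a median of −0.30, −0.28 and −0.11 (log2). At an unadjusted p under 0.05 in edgeR, 3, 4 and 0 of the 9 passed, against 27.5%, 28.4% and 18.6% of all genes. At the threshold, the share of all genes was 9.51%, 8.3% and 0.575%, so the 1 call of 9 was near the background. DESeq2 gave 0 calls under compounds 4 and 6. The gene that passed was H6PD, the hexose 6-phosphate dehydrogenase of the endoplasmic reticulum, which supplies NADPH there. It fell under compound 5 to 63.4 and 54.5 CPM from 105 and 79.5 CPM under DMSO, by −0.64 on the log2 scale (adjusted p = 0.046, edgeR quasi-likelihood, Benjamini-Hochberg). That call was lost in a fit of only the 4 samples compared and without any 1 of 6 libraries, with adjusted p between 0.056 and 0.23 (edgeR, Benjamini-Hochberg). These were both DMSO, both compound 4 and both compound 5 libraries, and over all 13 alternatives the adjusted p ranged from 0.00015 to 0.23. RBKS, ribokinase, had the largest fitted change of this list under all 3 compounds, at −0.43, −0.96 and −0.36, none past the threshold. Its adjusted p under compound 5 was 0.10, and 0.0049 to 0.36 over the 13 alternatives, of which 2 gave a call (edgeR and DESeq2, Benjamini-Hochberg). These were the test without a filter and the fit without replicate 2 of compound 4. Its value under compound 4 was 0.023 without replicate 2 of that compound.

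Of 11 genes listed as other sources of NADPH, 10 were tested, and 1, 2 and 0 passed, all of them higher in edgeR. The list includes NADK, which makes NADP, and which cofactor its enzymes used in these cells was not tested. At an unadjusted p under 0.05 in edgeR, 4, 2 and 3 of the 10 passed, against 27.5%, 28.4% and 18.6% of all genes. At the threshold, the shares were 10%, 20% and 0%, against 9.51%, 8.3% and 0.575% of all genes. With 10 genes, these counts were near the background. DESeq2 gave 1 call under compound 6. The median was 0.07, −0.01 and −0.05. MTHFD2, a mitochondrial enzyme of folate metabolism, rose from 141 and 133 CPM under DMSO to 202 and 345 CPM under compound 4 and to 354 and 298 CPM under compound 5. Its log2-fold changes were 1.00 and 1.25 (adjusted p = 0.041 and 0.023, edgeR quasi-likelihood, Benjamini-Hochberg), and 1.08 under compound 6, which did not pass. ALDH1L2, which forms NADPH from formyltetrahydrofolate in mitochondria, rose under compound 5 by 0.65 (adjusted p = 0.035, edgeR quasi-likelihood, Benjamini-Hochberg). Under compounds 4 and 6, its changes were 0.41 and 0.71 (adjusted p = 0.12 and 0.064, edgeR quasi-likelihood, Benjamini-Hochberg), and that under compound 6 passed in 5 of 13 alternatives. Its call under compound 5 was lost without either DMSO library, replicate 1 of compound 5 or either library of compound 6, with adjusted p between 0.052 and 0.22 (edgeR, Benjamini-Hochberg). MTHFD1, a cytosolic enzyme of folate metabolism, was named after its values were seen. It had a change of −0.47 under compound 4 (adjusted p = 0.063, edgeR quasi-likelihood, Benjamini-Hochberg). It passed in the lower direction with the replicate block, where 2 genes of the list passed, 1 higher and 1 lower, and it was the 1 gene of the list that passed with DESeq2, where 0 passed in the higher direction. MTHFD2 did not pass under compound 4 without replicate 1 or 2 of DMSO or replicate 2 of compound 4, nor with DESeq2 (adjusted p = 0.059, Wald test, Benjamini-Hochberg; up to 0.26 over the 13 alternatives). The count under compound 4 was 0 without replicate 1 or 2 of DMSO or replicate 2 of compound 4, and 2 without replicate 1 or 2 of compound 5. The count under compound 5 was 0 without replicate 1 or 2 of DMSO or replicate 1 of compound 5, and 1 without replicate 1 or 2 of compound 6. Under compound 6 it was 1 without replicate 1 or 2 of compound 5.

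Enzymes that use NADPH were split by role into lists written with earlier results of these data known, so the counts are description. Most calls were decreases among the enzymes that use NADPH in lipid synthesis and increases among those of redox defence. Of 14 enzymes that use it in sterol and fatty acid synthesis, all were tested, and 12 fell under compound 4, 10 fell and 1 rose under compound 5, and 3 fell under compound 6. Their changes had a median of −1.46, −1.34 and −0.90. The shares past the threshold were 85.7%, 78.6% and 21.4% of the list, against 9.51%, 8.3% and 0.575% of all genes. MSMO1, the sterol methyl oxidase, fell from 138 and 128 CPM under DMSO to 36.7 and 23.0 CPM under compound 4 and to 17 and 26.1 CPM under compound 5. Its log2-fold changes were −2.16 and −2.61 (adjusted p = 0.0022 and 0.0016, edgeR quasi-likelihood, Benjamini-Hochberg). On the same scale, TM7SF2 changed by −2.0 under compound 5 and SQLE, squalene epoxidase, by −0.997 under compound 6. The call of SQLE under compound 6 was at an adjusted p of 0.048, and 0.051 with the replicate block (edgeR, Benjamini-Hochberg; 3.5e-11 to 0.44 over the 13 alternatives). POR, the reductase that passes electrons from NADPH to cytochromes P450, was the exception and rose by 0.49 under compound 5 (adjusted p = 0.021, edgeR quasi-likelihood, Benjamini-Hochberg). POR did not pass without replicate 1 or 2 of DMSO or replicate 1 of compound 5 (adjusted p up to 0.16, edgeR, Benjamini-Hochberg). IDH1 changed in the direction of this list, by a smaller amount than its median in each comparison. The count under compound 6 was 0 or 1 without either library of DMSO or of compound 6, 7 without either library of compound 4, and 10 and 9 without replicate 1 and replicate 2 of compound 5.

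Of 14 enzymes that use NADPH in redox defence and carbonyl reduction, 13 were tested, and 6, 7 and 1 passed under compounds 4, 5 and 6, all higher. The median was 0.55, 0.55 and 0.40. The shares past the threshold were 46.2%, 53.8% and 7.69% of the tested list genes, against 9.51%, 8.3% and 0.575% of all genes. TXNRD1, thioredoxin reductase, rose from 449.5 and 404 CPM under DMSO to 728 and 949.8 CPM under compound 4 and 1139 and 805 CPM under compound 5, by 0.98 and 1.19 (adjusted p = 0.017 and 0.011, edgeR quasi-likelihood, Benjamini-Hochberg). AKR1B10, an aldo-keto reductase, rose by 1.17, 1.05 and 0.70 under the 3 compounds (adjusted p = 0.0020, 0.0031 and 0.048, edgeR quasi-likelihood, Benjamini-Hochberg). TXNRD1 did not pass without either DMSO library, and not without replicate 2 of compound 4 for that compound or replicate 1 of compound 5 for the other, with adjusted p between 0.065 and 0.15 for compound 4 and 0.066 and 0.11 for compound 5 (edgeR, Benjamini-Hochberg). AKR1B10 missed the threshold under compound 5 without replicate 2 of DMSO (adjusted p = 0.054, edgeR, Benjamini-Hochberg), and under compound 6 without either library of DMSO or of compound 6. Aldo-keto reductases are close paralogs, so the division of reads among them is uncertain. TKT and TALDO1 had changes of the same sign as the median of this list but did not pass. The count under compound 4 was 1 without replicate 2 of DMSO. Under compound 5 it was 3 and 0 without replicates 1 and 2 of DMSO and 2 without replicate 1 of compound 5. Under compound 6 it was 0 without either library of DMSO or of compound 6 and 2 without either library of compound 5.

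**Figure D4:**
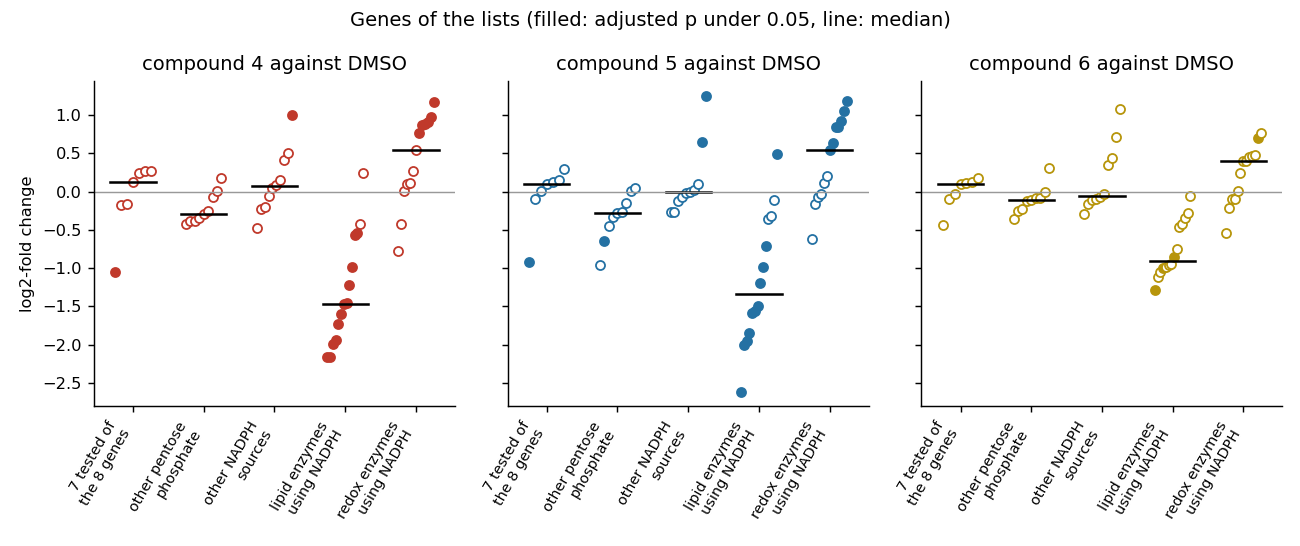
Log2-fold changes against DMSO of the 7 tested genes of the group and of the tested genes of the 4 lists, 1 panel per compound, with filled points for an adjusted p under 0.05 and a line for the median. The lipid enzymes that use NADPH have medians of −1.46, −1.34 and −0.90, the redox enzymes 0.55, 0.55 and 0.40, and the 7 genes lie near 0 except for IDH1.

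The pattern of IDH1 over the 8 libraries was most like that of HMGB3 among 13399 other tested genes, with a Pearson's r of log2 CPM of 0.987. This value is a description over 8 libraries, in which both genes were read from the same libraries and each pair of replicates shared a treatment. HMGB3, a chromatin protein, lay at 64.3 and 63.6 CPM under DMSO, 40.8 and 34.2 under compound 4, 35.1 and 45.1 under compound 5, and 49.6 and 46.8 under compound 6. Like IDH1, it was lowest in replicate 2 of compound 4 and intermediate under compound 6.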

How the data were processed

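RNA of 8 samples was sequenced as paired-end reads from a directional library kit. Per the study's methods, the authors estimated transcript abundance with Salmon 1.5.0 on a GENCODE 38 index (GRCh38) and summarized it to genes with tximeta 1.16.0. The deposited table holds whole-number counts for 60230 genes, with totals that differ between samples, as counts without normalization do. Totals were 9791659 to 17814595 per sample. Because the estimates follow transcript sequence, reads of near-identical genes are divided by a model.

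The deposited counts were analysed with edgeR 4.0.16 in R 4.3.3. Low genes were removed by filterByExpr (minimum count 10), libraries were scaled with TMM, and a single quasi-likelihood model held all 8 samples. Benjamini-Hochberg adjustment ran over 13400 genes, and 0.05 was the threshold. SE and 95% intervals come from the same test. Log2 CPM for correlations and within-day differences used a prior count of 2. On simulated data at the depth of these samples, with 197 changed genes of 13243, calls for compound 4 recovered 61.6% of the genes changed by 1 and 90.8% of the genes changed by 2 on the log2 scale. Nothing in the sources says that samples of a group came from separate cultures, so p-values measure the spread between these samples. No pair of replicates was alike within sampling noise.

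The alternatives were DESeq2 1.42.0 (Wald test), the day as a replicate block, a fit of the 4 samples compared, DESeq2's size factors, no filter, and leaving out each of the 8 libraries. The labels name the day without saying what it stands for, and this is where the pairing comes from. Across 13400 genes, the day difference correlated between groups with r from −0.15 to 0.24. The members, lists and tests were chosen with earlier results of these data known. Named genes were the 8 members, the list genes with the 2 largest increases and decreases past the threshold at a mean of at least 1 CPM or, with none past it, the largest change, and the 2 genes most like each called member. Some genes that this rule names are not reported here. Positions and transcript lengths are from GENCODE 29 (GRCh38). Figures were made with matplotlib 3.10.9. Cytotoxicity, cell cycle and docking data were not analysed here.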

Additional observations from a re-analysis of the deposited data

How the results depend on the processing

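Counts of genes past the threshold were the results that moved most. With DESeq2, 2 of the 7 genes passed under compound 5, 1 passed between compounds 4 and 6, and the lists of other NADPH sources, lipid enzymes and redox enzymes had 1, 11 and 3 genes past it under compound 6. Without a filter on low counts, 1 of the 7 genes passed under compound 6, 1 between compounds 4 and 6 and 1 between compounds 6 and 5, with 2 other pentose phosphate genes under compound 5, 3 and 2 other NADPH sources under compounds 4 and 6, and 11 lipid and 7 redox enzymes under compound 6. In a fit of the 4 samples compared, 1 of the 7 genes passed under compound 6, 0 other pentose phosphate genes under compound 5, 2 and 2 other NADPH sources under compounds 4 and 6, and 12 lipid and 3 redox enzymes under compound 6. DESeq2's size factors left 0 redox enzymes under compound 6 and turned PGD under compound 5 to −0.00112. With the replicate block by day, 2 other NADPH sources passed under compound 4, with MTHFD1 added in the lower direction, and SQLE under compound 6 did not pass. The block changed no other call of the genes named by the rule. With DESeq2, the 1 other NADPH source that passed under compound 4 was MTHFD1 and was lower, where MTHFD2, higher, passed in edgeR. The cause of these differences was not tested.

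Leaving out 1 library leaves its group with 1 sample, which is then assumed to vary like the other groups. Of the 7 genes, 0 to 1 passed under compound 4, 0 to 1 under compound 5, and 0 in the other 4 comparisons. Under compounds 4, 5 and 6 in turn, the counts were 0, 0 to 1 and 0 for other pentose phosphate genes, 0 to 2, 0 to 3 and 0 to 1 for other NADPH sources, 9 to 13, 8 to 11 and 0 to 10 for lipid enzymes, and 1 to 7, 0 to 8 and 0 to 2 for redox enzymes. The median log2-fold change of the 7 genes lay between 0.0775 and 0.152 for compound 4, between 0.0257 and 0.129 for compound 5 and between 0.0245 and 0.118 for compound 6. Some changes turned their sign. These were PGLS under compound 5 (−0.241 to 0.0277) and between compounds 4 and 6 (−0.0809 to 0.251), PGD under compound 5 (−0.0367 to 0.0511) and between compounds 4 and 6 (−0.0698 to 0.105), RPIA under compound 5 (−0.000747 to 0.245) and compound 6 (−0.214 to 0.0321), TKT and IDH1 between compounds 4 and 5 (−0.0779 to 0.0139 and −0.321 to 0.0854), TALDO1 between compounds 6 and 5 (−0.0583 to 0.00771), and H6PD and RBKS under compound 4 (−0.0134 to 0.377 and −1.05 to 0.0230). None of these passed the threshold. Where a 95% interval given holds 0, the 2 samples per group leave room for no change and for a change of any size inside it. The intervals are not adjusted for the number of genes, so an interval without 0 can belong to a change that did not pass.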

Other observations

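Further genes of the lists were named after their values were seen. NQO1, a quinone reductase that uses NADPH, lay between 1344 and 1663 CPM in the 8 libraries. Its log2-fold changes were 0.01, 0.20 and 0.01 under compounds 4, 5 and 6, and none passed the threshold. AKR1C1, AKR1C2, AKR1C3 and PTGR1 of the same list, like TXNRD1 and AKR1B10, rose past the threshold under compounds 4 and 5. NNT, the transhydrogenase that forms NADPH in mitochondria, lay between 68.0 and 78.6 CPM, and NADK, the cytosolic NAD kinase that makes NADP, between 99.7 and 118 CPM. GSR, which reduces glutathione with NADPH, rose under compound 5 by 0.55 on the log2 scale (adjusted p = 0.015, edgeR quasi-likelihood, Benjamini-Hochberg) and had values of 0.27 and 0.24 under compounds 4 and 6 that did not pass.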
